A study of Mus musculus with 8 samples.

Results

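The nuclear genes for the respiratory chain and the ATP synthase were followed across 8 mouse mammary tumour arrays. Members were every probe, control spots left out, whose RefSeq accession belonged to a gene with a symbol starting Ndufa, Ndufb, Ndufc, Ndufs, Ndufv, Uqcr, Atp5 or Cox4 to Cox8, and the genes Sdha, Sdhb, Sdhc and Sdhd. This gave 93 genes on 124 probes, of 21368 named genes and 55681 distinct probes on the array. They comprised 36 genes of complex I, 4 of complex II, 8 of complex III, 20 of complex IV, 17 of complex V and 8 Ndufaf genes, which share the prefix but encode assembly factors and no subunits. Ndufa4 was placed in complex IV, where its product is found. Its paralogue Ndufa4l2 was placed beside it and counted with the isoforms of other tissues, as a label only. Of the 93 genes, 90 genes with 120 probes could be tested.

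Complexes I to IV pass electrons from NADH and succinate to oxygen in the inner mitochondrial membrane and pump protons as they do so, except for complex II, and complex V uses the resulting gradient to make ATP. Most of their subunits are encoded in the nucleus and the others in mitochondrial DNA, and no mitochondrially encoded subunit was matched to a probe here. Skeletal muscle, heart and brown fat hold many mitochondria and are rich in these transcripts. For some complex IV subunits, striated muscle and brown fat use isoforms of their own in place of the general ones.

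Per the labels, 4 tumours came from FGFR1 KO mice, with the genotype K19-tva/fgfr1loxP/loxP, and 4 from WT mice, which were K19-tva controls. Both groups share the K19-tva transgene, in which a keratin 19 promoter drives the avian virus receptor tva, and the FVB strain, into which the floxed line had been bred from ICR. The sources used here do not give the agent that started the tumours, the recombinase, the ages, or whether each tumour came from an animal of its own. The p-values therefore reflect only how these samples vary, which may be technical. Each tumour RNA was hybridised to 1 Agilent 2-colour array against a human reference RNA, and a value is the log2 of tumour (red) over reference (green) signal after normalization.

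The share of spots with red signal well above background ran from 68.9% to 83.9% over KO and from 43.9% to 69.2% over WT, and with 8 arrays their number sets the precision. All arrays lay on 1 slide, KO in row 1 and WT in row 2, so that genotype cannot be told apart from row. The representative probe of the targeted gene, Fgfr1, read 0.31 ± 0.11 (SD, n = 4) in KO and 0.31 ± 0.06 (SD, n = 4) in WT, and since its place relative to the loxP sites is not known here it does not test the labels. The array labelled WT 2 stood apart, with a mean correlation to the other arrays of 0.379 against 0.598 to 0.713 for the others. Its 10 mammary epithelial markers had a median of -0.63, compared with 1.75 to 3.12 elsewhere, and only 5 of the 10 were well above background there, so WT 2 went against its label as a mammary tumour. The genotype comparison is therefore given with and without it, and also without WT 1, which shared part of its pattern.

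The medians of all 5 complexes were highest on WT 2 and moved together from array to array. The median over the 90 tested genes was -0.45, 0.53, 0.05 and 0.20 on KO 1 to KO 4 and 0.44, 2.84, -0.15 and -0.01 on WT 1 to WT 4. WT 2 thus lay far above the rest, while KO 1 was lowest and the KO values lay on both sides of WT 1, WT 3 and WT 4. The median over all 16806 genes tested stayed between 0.00 and 0.04 on every array. Among the 88 members with a value on every array, WT 2 was the highest array for 83, against 25.9% of all genes, and KO 1 the lowest for 59, against 16.3% of all genes.

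**Figure D1:**
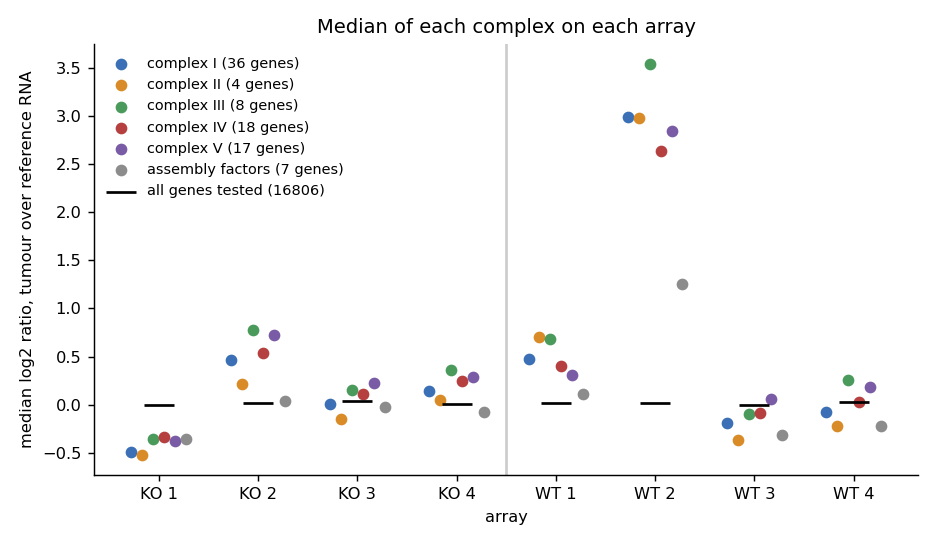
Median log2 ratio of tumour to reference RNA for the tested genes of each complex (points), for the Ndufaf assembly factors (grey) and for all genes tested (black bars), on each of the 8 arrays. All 5 complexes reach 2.63 to 3.54 for WT 2, while elsewhere they span -0.53 to 0.77.

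Complex I, the NADH dehydrogenase, is built from a core of catalytic subunits, several of them in the Ndufs and Ndufv groups, and many accessory subunits. All 36 genes were tested, and the median was -0.49, 0.47, 0.01 and 0.14 on KO 1 to KO 4 and 0.48, 2.99, -0.19 and -0.08 on WT 1 to WT 4. Ndufv1, which carries the NADH binding site, read -0.51, 0.54, 0.25 and 0.33 on the KO arrays and 0.67, 3.37, -0.24 and -0.06 on the WT arrays. Apart from WT 2, its KO and WT arrays overlapped. The excess of WT 2 over the mean of the other WT arrays was 1.53 to 3.42 over the 36 genes, with a median of 2.84, and it was smallest for Ndufab1, the acyl carrier protein, and largest for Ndufc1.

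The KO minus WT difference was below 0 for all 36 complex I genes, with a median of -0.78 on the log2 scale. Ndufb7, an accessory subunit of the membrane arm, had the smallest p of the complex. It read 0.47, 1.30, 0.77 and 1.58 on the KO arrays and 1.33, 3.35, 1.34 and 1.34 on the WT arrays, and the groups overlapped through KO 4. Its difference was -0.81 ± 0.48 (SE, limma adjusted p = 0.669). Ndufb6, another membrane arm subunit, read -1.04, 0.38, -0.53 and -0.13 against 0.24, 2.68, -0.51 and 0.32, again overlapping, with a difference of -1.01 ± 0.63 (SE, limma adjusted p = 0.681).

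With WT 1 and WT 2 left out, the complex I differences lay on the other side of 0 for 33 of 36 genes, with a median of 0.12. Ndufa1, a small accessory subunit, had the smallest p there. It read -0.05, 0.74, 0.36 and 0.47 on the KO arrays and 0.66, 2.95, -0.01 and -0.22 on the WT arrays, so that KO 1 fell between WT 3 and WT 4. Its 6-array difference was 0.49 ± 0.24 (SE, limma adjusted p = 0.716). Ndufa8 followed at 0.36 ± 0.23 (SE, limma adjusted p = 0.835), although its spots were well above background on only 2 of the 4 WT arrays. Ndufc2 had the 8-array difference nearest 0, -0.24 ± 0.57 (SE, limma adjusted p = 0.913), and the widest spread within KO, from -0.88 on KO 1 to 1.22 on KO 4. By their representative probes, 3 genes stayed below 0 without both arrays: Ndufb6 (-0.23), Ndufb7 (-0.31) and Ndufs6 (-0.03). The second Ndufb6 probe gave 0.30 there, so the sign for Ndufb6 depended on the probe.

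Complex II, succinate dehydrogenase, also belongs to the tricarboxylic acid cycle, and all 4 of its subunits are nuclear. Sdhb, its iron-sulfur subunit, read -0.83, -0.12, -0.53 and -0.14 on the KO arrays and 0.89, 3.78, -0.51 and -0.32 on the WT arrays. Both WT 1 and WT 2 were above all other arrays, while WT 3 and WT 4 lay within the KO range. Its WT 2 excess of 3.76 was larger than that of every other tested subunit except the 3 muscle isoforms, and its second probe gave 3.51. Sdha, the flavoprotein subunit, read -0.44, 0.82, 0.20 and 0.41 against 1.02, 3.02, -0.23 and 0.14. The membrane anchor Sdhc read -0.18, 0.39, 0.25 and 0.13 against 0.52, 2.93, -0.23 and -0.13. The other anchor, Sdhd, read -0.61, 0.03, -0.50 and -0.04 against 0.44, 2.44, -0.65 and -0.44.

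For all 4 complex II genes WT 1 was the second highest array. WT 1 exceeded the mean of WT 3 and WT 4 by 0.70 to 1.30 in these 4 genes, with a median of 1.02. The same median was 1.08 in the tricarboxylic acid cycle list, 0.64 in complex III, 0.44 in complexes I and IV and 0.15 in complex V. The 8-array differences were -0.74 ± 0.65 for Sdha, -1.37 ± 0.84 for Sdhb, -0.62 ± 0.63 for Sdhc and -0.73 ± 0.61 for Sdhd (SE; limma adjusted p from 0.677 to 0.786). Without WT 1 and WT 2 they were 0.29, 0.01, 0.33 and 0.27.

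Complex III, the cytochrome bc1 complex, hands electrons from ubiquinol to cytochrome c. Its 8 genes had the highest median of the complexes on WT 2, 3.54, and a median WT 2 excess of 3.09. Uqcrc1, a core subunit, read 0.41, 1.41, 0.87 and 1.63 on the KO arrays and 2.05, 4.58, 1.16 and 0.97 on the WT arrays. WT 1 and WT 2 were the highest arrays and WT 3 and WT 4 lay inside the KO range, with a difference of -1.11 ± 0.73 (SE, limma adjusted p = 0.697) that was 0.02 without WT 1 and WT 2. Uqcrq, a small subunit, differed by -1.03 ± 0.78, Uqcrc2, the second core subunit, by -0.84 ± 0.68 and Uqcrb by -0.63 ± 0.55 (SE; limma adjusted p from 0.724 to 0.759). By their representative probes, all 8 genes were below 0 over 8 arrays and all 8 above 0 over 6, at 0.02 to 0.24. The second Uqcrq probe gave -0.09 over 6 arrays.

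Complex V, the ATP synthase, joins a catalytic F1 head to a membrane rotor of c subunits. Its 17 genes had a median of -0.38, 0.72, 0.23 and 0.29 on KO 1 to KO 4 and 0.31, 2.84, 0.05 and 0.18 on WT 1 to WT 4, so that KO 2 stood above WT 1. Atp5d, the delta subunit of F1, had the smallest p: it read 0.70, 1.03, 0.34 and 1.62 on the KO arrays and 1.56, 3.48, 1.15 and 1.61 on the WT arrays, overlapping only through KO 4. Its difference was -1.03 ± 0.50 over 8 arrays and -0.46 ± 0.34 over 6 (SE; limma adjusted p = 0.614 and 0.873), and it was one of 4 complex V genes that stayed below 0 without WT 1 and WT 2. The others were Atp5h (-0.40), Atp5md (-0.01) and Atp5g1 (-0.42), which with Atp5g2 and Atp5g3 encodes the same c subunit. Over 8 arrays Atp5g1 differed by -0.96 ± 0.61 (SE, limma adjusted p = 0.683). The value of Atp5a1, the alpha subunit, is missing on WT 1, so its fit used 7 arrays.

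The 3 c-subunit genes differed on WT 2. Atp5g1 read -0.54, 0.84, 0.44 and 0.29 on the KO arrays and 0.41, 3.12, 1.12 and 0.23 on the WT arrays, an excess of 2.53 on WT 2. Atp5g3 had an excess of 2.37 there. Atp5g2 read -0.60, -0.15, -0.47 and -0.23 against -0.50, 0.78, -0.55 and -0.44, an excess of 1.27, and its second probe gave 1.38. Its 8-array difference was -0.18 ± 0.30 (SE, limma adjusted p = 0.872), the one nearest 0 in the complex.

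Of the 77 general subunits, 69 exceeded the other WT arrays on WT 2 by 2 to 4 on the log2 scale, with a median of 2.73 and quartiles of 2.52 and 3.02. The 8 below 2 were picked out after their values were seen: Ndufc2 (1.99), Atp5h (1.72), Ndufab1 (1.53), Cox6a1 (1.37), Atp5g2 (1.27), Cox8a (1.19), Cox7a2l (0.92) and Atp5c1 (-0.19). Cox7a2l encodes a factor that joins complexes III and IV, and its 3 probes gave 0.78 to 0.92. For Atp5c1, the gamma subunit of F1, the probe that represents the gene, A_55_P2150908, read -0.32 on WT 2, but its other probe, A_55_P2150906, read 2.46 there and had an excess of 2.77. The low value of Atp5c1 therefore holds for 1 of its 2 probes, which carry the same accession. Among the 23 members with more than 1 tested probe, the probes were more than 1 apart in this excess for 2 genes, Atp5c1 and Ndufv3 (0.91 and 2.61), and the median gap was 0.20.

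**Figure D2:**
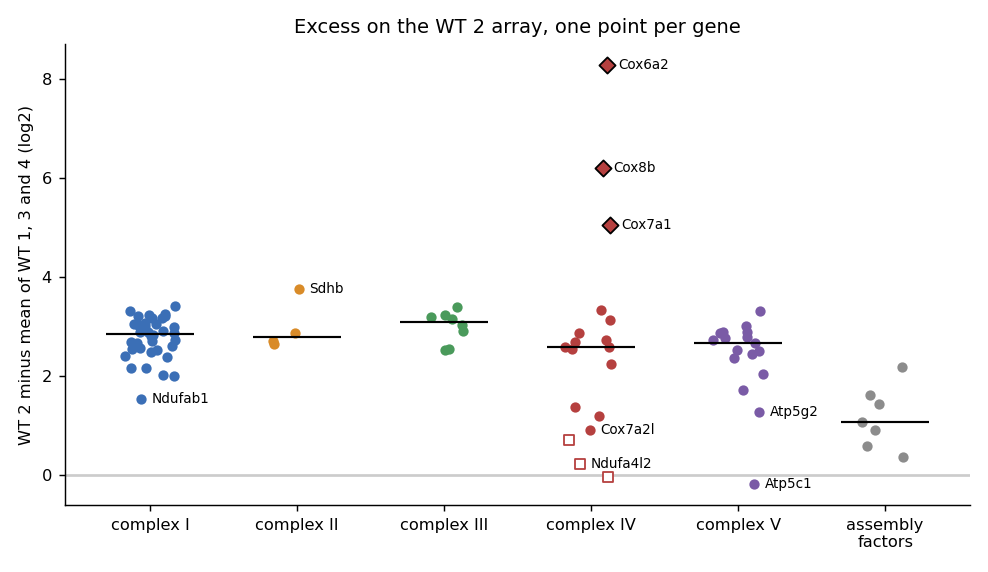
Log2 excess of WT 2 over the mean of WT 1, WT 3 and WT 4 for each tested member, by complex, with black bars at the medians. Diamonds mark the muscle isoforms (5.04 to 8.27), open squares the other tissue isoforms (-0.03 to 0.71) and filled circles the general genes, most of them between 2 and 4.

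Complex IV, cytochrome c oxidase, is where paired isoforms occur. Cox6a2, Cox7a1 and Cox8b are the forms of striated muscle, and Cox7a1 and Cox8b are also used in brown fat, while Cox6a1, Cox7a2 and Cox8a are their general partners. The stretches upstream of the start site are shown for the members of these pairs with an entry in RefSeq's promoter table (build GRCm38.p6), 250 bases each, because values within these pairs parted on WT 1 and WT 2. Capitals mark every match on either strand to TCAAGGTCA (estrogen-related receptor, ERR), GCGCATGC (NRF1 core), CCGGAAG (ETS, GABP), AAGATGGC (YY1), CANNTG (E-box) or the MEF2 motif.
Cox8b, chr7:140900447-140900696, minus strand: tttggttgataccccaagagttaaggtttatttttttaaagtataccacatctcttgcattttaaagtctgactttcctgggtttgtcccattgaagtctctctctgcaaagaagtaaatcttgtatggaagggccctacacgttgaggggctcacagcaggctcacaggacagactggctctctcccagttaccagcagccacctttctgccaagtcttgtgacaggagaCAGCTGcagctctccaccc
Cox8a, chr19:7217617-7217866, minus strand: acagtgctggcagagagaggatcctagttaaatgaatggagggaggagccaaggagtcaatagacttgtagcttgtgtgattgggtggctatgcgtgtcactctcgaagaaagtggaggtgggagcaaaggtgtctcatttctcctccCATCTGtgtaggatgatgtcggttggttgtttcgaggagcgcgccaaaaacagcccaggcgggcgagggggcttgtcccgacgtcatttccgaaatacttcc
Cox7a1, chr7:30183921-30184170, plus strand: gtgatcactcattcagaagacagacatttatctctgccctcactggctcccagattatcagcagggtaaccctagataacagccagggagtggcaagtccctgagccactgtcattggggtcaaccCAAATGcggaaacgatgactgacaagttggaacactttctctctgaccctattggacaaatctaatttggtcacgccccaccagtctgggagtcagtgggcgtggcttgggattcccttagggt
Cox7a2, chr9:79759854-79760103, minus strand: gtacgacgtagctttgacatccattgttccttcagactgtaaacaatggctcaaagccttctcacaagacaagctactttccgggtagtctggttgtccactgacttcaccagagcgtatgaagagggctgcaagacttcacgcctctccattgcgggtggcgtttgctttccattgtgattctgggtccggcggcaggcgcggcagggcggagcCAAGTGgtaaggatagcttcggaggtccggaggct
Cox6a1, chr5:115348959-115349208, minus strand: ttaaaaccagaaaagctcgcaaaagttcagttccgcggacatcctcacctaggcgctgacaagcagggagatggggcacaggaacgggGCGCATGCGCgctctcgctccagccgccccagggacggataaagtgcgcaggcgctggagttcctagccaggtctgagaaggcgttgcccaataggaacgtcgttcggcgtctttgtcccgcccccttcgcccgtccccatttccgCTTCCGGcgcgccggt

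In these stretches the Cox8b, Cox8a, Cox7a1 and Cox7a2 capitals are E-boxes only. The Cox6a1 stretch holds overlapping NRF1 core matches and an ETS match close to the start, and the Cox8a window has an ETS match across its start site and another after it, outside the printed bases. A match is a description of the letters, and an E-box match was found in 75% of the 27025 genes with a window.

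Cox6a2 read -1.14, -0.94, -1.33 and -1.37 on the KO arrays and -0.39, 7.17, -1.502 and -1.42 on the WT arrays. WT 2 alone was high, at 8.27 above the mean of the other WT arrays, and WT 1 was the next array, 1.07 above the mean of WT 3 and WT 4. Its general partner Cox6a1 read -0.52, 0.70, 0.14 and 0.66 against 0.64, 1.70, -0.01 and 0.35. The excess of Cox6a1 on WT 2 was thus 1.37, and its groups overlapped with WT 2 the highest array.

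Cox7a1 read 0.20, 0.32, 0.40 and 0.08 on the KO arrays and 2.15, 5.80, -0.10 and 0.23 on the WT arrays. WT 1 and WT 2 were both above every other array, and WT 3 and WT 4 were at the level of the KO arrays. Cox7a2 read -0.34, 0.62, -0.17 and 0.25 against 0.16, 2.25, -0.14 and 0.04, with WT 1 inside the KO range. WT 1 thus exceeded WT 3 and WT 4 by 2.09 for Cox7a1 and by 0.21 for Cox7a2.

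Cox8b read -0.38, -0.38, 0.96 and -0.29 on the KO arrays and 5.10, 8.56, 0.34 and 1.66 on the WT arrays. WT 1, WT 2 and WT 4 were above every KO array, and WT 3 overlapped KO 3. Cox8a read -0.31, 0.71, 0.17 and 0.46 against 0.47, 1.46, 0.0035 and 0.35, with an excess of 1.19 on WT 2 from the first probe and 1.16 from the second. The single Cox8b probe was well above background on 3 of 4 arrays in each group and lay in an area of the slide layout where negative controls were bright on some arrays, which held 31.25% of spots and 38 of the 90 members. The single Cox7a1 probe lay in the same area, while that of Cox6a2 did not.

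**Figure D3:**
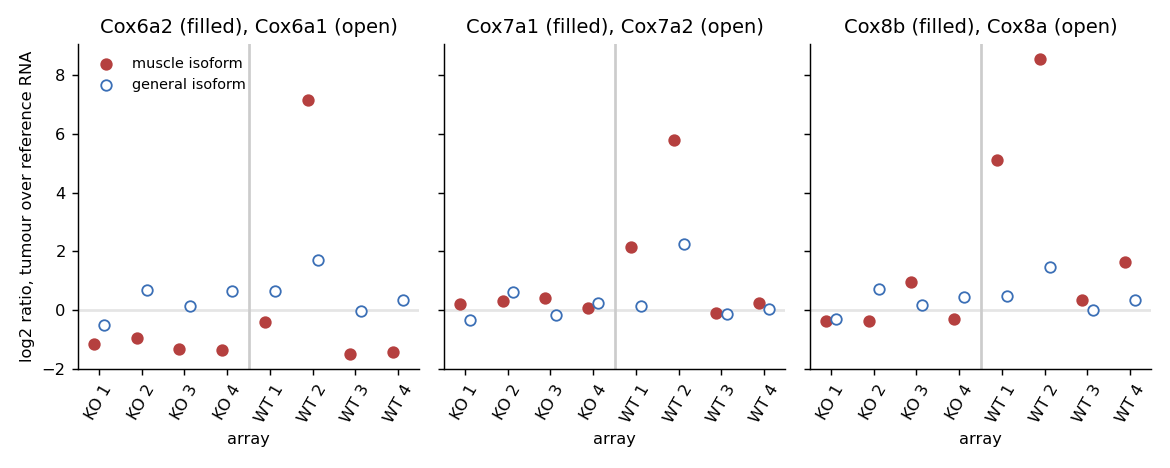
Log2 ratio of tumour to reference RNA on each of the 8 arrays for the muscle isoforms Cox6a2, Cox7a1 and Cox8b (filled) and their general partners Cox6a1, Cox7a2 and Cox8a (open). On WT 1, Cox8b stands at 5.10 and Cox7a1 at 2.15 while Cox6a2 stands at -0.39, and on WT 2 all 3 muscle isoforms stand above 5.

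The 8-array differences were -2.16 ± 1.72 for Cox6a2, -1.77 ± 1.12 for Cox7a1 and -3.94 ± 1.55 for Cox8b (SE; limma adjusted p = 0.738, 0.687 and 0.553). Set against the general partner of each gene, they were 1.74, 1.28 and 3.63 further below 0. Without WT 2 the differences were -0.09, -0.51 and -2.39. Without WT 1 and WT 2 they were 0.26 ± 0.19, 0.19 ± 0.19 and -1.02 ± 0.48 (SE; limma adjusted p = 0.863, 0.927 and 0.705). The partners Cox6a1, Cox7a2 and Cox8a differed by -0.42 ± 0.40, -0.49 ± 0.51 and -0.31 ± 0.33 over 8 arrays (SE; limma adjusted p from 0.774 to 0.7997), and by 0.08, 0.14 and 0.09 over 6.

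Ndufa4l2, the paralogue of the complex IV subunit Ndufa4 and a known target of hypoxia-inducible factor, was the only one of the 88 members with a value on every array whose 4 KO arrays all lay below all 4 WT arrays. It read 0.63, 0.87, 0.26 and 0.64 in KO, 0.60 ± 0.25 (SD, n = 4), and 1.14, 1.503, 1.19 and 1.53 in WT, 1.34 ± 0.20 (SD, n = 4). WT 2 did not stand out, and the highest KO array was below the lowest WT array. The difference was -0.74 ± 0.17 (SE, limma adjusted p = 0.315) over 8 arrays and -0.76 ± 0.22 (SE, limma adjusted p = 0.494) without WT 1 and WT 2. It ran from -0.90 to -0.60 over the 20 alternatives that gave it a value, with adjusted p from 0.194 upwards. Its single probe, like that of Cox8b, lay in the area where negative controls were bright on some arrays, so leaving that area out gave no value for either gene. Over all genes with 8 values, 2.49% had every KO array below every WT array and 1.82% the reverse, and of the members 0 showed the reverse. Ndufa4 itself read -0.24, 1.14, 0.35 and 0.52 against 0.80, 3.11, 0.16 and 0.61, following the other general subunits, with a difference of -0.73 ± 0.60 (SE).

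The other tissue isoforms did not share the high values on WT 2. Cox4i2, the lung isoform of subunit 4, read between -0.16 and 0.20 on its 7 arrays with a value, with -0.01 on WT 2, and it has no value on KO 1, so its fit used 7 arrays. Cox6b2, the testis isoform of subunit 6b, ran from -0.30 to 0.79 in KO and from -0.35 to 0.56 in WT, where WT 2 was the highest WT array but lower than KO 1. Its difference was 0.20 ± 0.28 and that of Cox4i2 -0.05 ± 0.15 (SE; limma adjusted p = 0.850 and 0.940). Cox7b2 was not well above background on any array. Cox8c, another testis form, was not well above background on any KO array and was above it on WT 4 alone of the WT arrays, which gives at least 1.90-fold higher mean red signal in WT. That bound sets the mean of all 4 WT arrays against the KO mean of the dim signal or, where higher, of the array's lowest signal above background. The Cox8c probe lay in the area where negative controls were bright on some arrays. Its WT values ran from -0.21 on WT 2 to 1.95 on WT 4, so the bound does not hold for each WT array. Tumour RNA carried the red dye on all 8 arrays, with no dye swap.

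The Ndufaf genes, which help to build complex I without staying in it, differed less between arrays. Their median was -0.36, 0.04, -0.02 and -0.08 on KO 1 to KO 4 and 0.11, 1.25, -0.32 and -0.22 on WT 1 to WT 4, so that WT 2 was again the highest array. The WT 2 excess had a median of 1.08 and ran from 0.37 for Ndufaf2 to 2.19 for Ndufaf4. Of 7 tested, 6 were below 0 over 8 arrays (median -0.29) and 6 above 0 without WT 1 and WT 2 (median 0.13), all but Ndufaf5 at -0.05. Ndufaf1, which read -0.21, -0.0039, -0.02 and -0.20 against 0.11, 1.25, -0.75 and -0.46, was above WT 3 and WT 4 on every KO array, with a 6-array difference of 0.50 ± 0.18 (SE, limma adjusted p = 0.592). Ndufaf8 was above background on 2 KO arrays and on no WT array, and no fold is given because its mean red signal was no higher in KO.

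In the genotype comparison over all 8 arrays, 0 of the 90 tested members were called at an adjusted p of 0.05 by limma (lmFit and eBayes, two-sided, Benjamini-Hochberg over 39853 probes). Over all probes 4 were called, which is 0.01%. At an unadjusted p under 0.05 there were 2 of 90 members, Ndufa4l2 and Cox8b, against 7.88% of all genes. The differences were nonetheless on one side: 87 of 90 members were below 0, with a median of -0.73, against 50.4% of all genes and a median of -0.0027. The medians by complex were close, at -0.78, -0.73, -0.80, -0.73 and -0.74 for complexes I to V. The exceptions above 0 were Cox6b2 (0.20), Atp5c1 (0.24) and Ndufaf2 (0.13), and the other Atp5c1 probe gave -0.63.

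The size of these differences came with WT 2. Without it, 54 of 90 members were below 0 with a median of -0.05, and limma called 0 members and 0% of the probes, with 2 members at an unadjusted p under 0.05, again Ndufa4l2 and Cox8b, against 8.2% of all genes. Without WT 1 and WT 2, 78 of 90 members (86.7%) were above 0, against 52.9% of all genes, with a median of 0.13 against 0.02. Limma again called 0 members and 0% of the probes, with 2 members at an unadjusted p under 0.05, Ndufa4l2 and Ndufaf1, against 6.51% of all genes. By complex these medians were 0.12, 0.28, 0.15, 0.12 and 0.13 for I to V, beside an SD of 0.32 to 0.47 of the complex medians over the KO arrays. Of the 88 members with 8 values, 2 were higher on every KO array than on WT 3 and WT 4 (Cox6a2 and Ndufaf1), against 6.68% of all genes. The only one lower on every KO array was Ndufa4l2, against 6.91%.

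**Figure D4:**
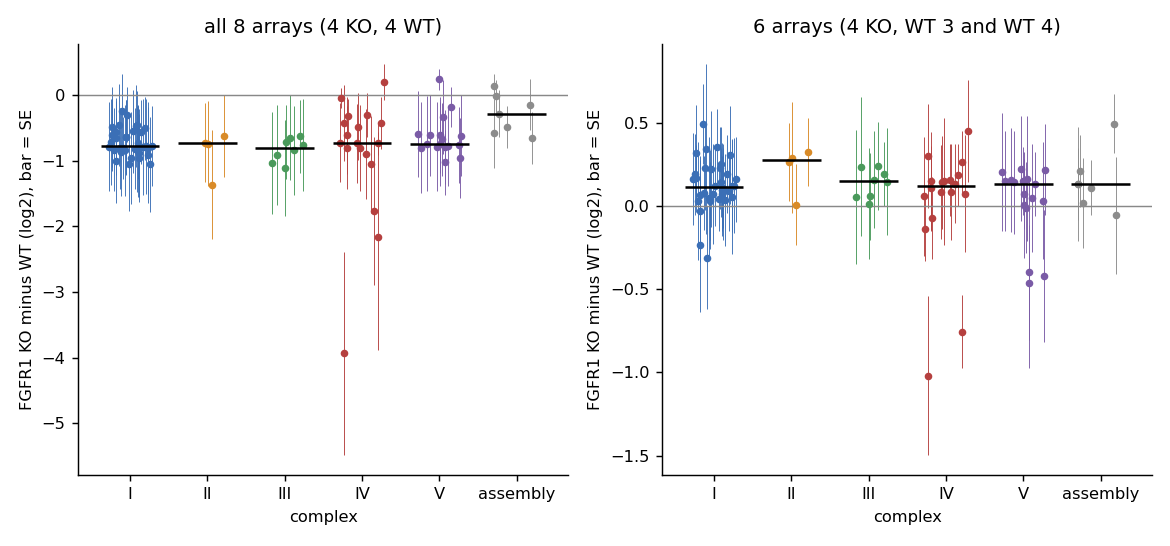
FGFR1 KO minus WT difference on the log2 scale for each tested member (points, bars are the SE from limma) by complex, over all 8 arrays (left) and without WT 1 and WT 2 (right), with black bars at the medians. The vertical scales differ. On the left 87 of 90 genes lie below 0, and on the right 78 of 90 lie above 0.

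The members also moved together on the arrays other than WT 2. Over the 7 arrays without it, KO 1 was the lowest array for 60 of 88 members, against 21.9% of all genes. KO 2 was the highest for 41 and WT 1 for 32, against 19.7% and 17.9% of all genes. Within KO alone, KO 1 was lowest for 74 of 88 members, against 34.1% of all genes, and KO 2 highest for 65, against 30.2%. Low values on KO 1 were not particular to the members. It was also the lowest array in the medians of tricarboxylic acid cycle (-0.43), mitochondrial ribosome (-0.56) and glycolysis genes (-1.71). In a wider list of assembly factors WT 3 was lower (-0.25, against -0.23 on KO 1). The correlation of each of 81 subunits with the median of the other general subunits over these 7 arrays had a median of 0.87 and was above 0.8 for 54, whereas 3.96% of all genes were above 0.8. It was above 0.8 for all 8 genes of complex III, with a lowest value of 0.84. The subunits that followed least were Cox6b2 (-0.59), Ndufa7 (-0.22) and Ndufa4l2 (0.09), and among 7 assembly factors 1 was above 0.8, Ndufaf4 (0.94). These correlations describe 7 arrays, whose spots share RNA, dye and normalization, and they include both genotypes.

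The promoter windows of the members, which run from 250 bases before to 50 after the start, were searched for letters known from nuclear respiratory genes. A window was found for 76 of the 93 genes in RefSeq's GRCm38.p6 table. The ETS letters CCGGAAG were present for 19 genes (25%) against 9.93% of all 27025 genes, and the NRF1 core GCGCATGC for 12 (15.8%) against 3.05%. The YY1 letters AAGATGGC were present for 11 (14.5%) against 3.19%. By complex, ETS letters were in 4 of 32 windows of complex I, 2 of 3 of complex II, 2 of 5 of complex III, 3 of 14 of complex IV and 6 of 15 of complex V, while YY1 letters were in 7 of complex I, 3 of complex V and none of complexes II to IV. The ERR letters TCAAGGTCA were present for Sdhd and Atp5g3 only (2.63% against 0.466%), the MEF2 motif for 0 (against 3.7%), and E-boxes for 71.1% against 75%. Members had a median GC content of 58.3% against 52.7% for all windows, and GC content was not matched in these shares.

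Lists of genes that work beside the chain had a median WT 2 excess above 0 to different degrees, though not every gene did. All 18 tricarboxylic acid cycle genes and all 19 fatty acid oxidation genes tested had KO minus WT below 0 over 8 arrays, with medians of -0.91 and -0.88 and a median WT 2 excess of 2.92 and 2.85, near the 2.73 of the general subunits. Their medians without WT 1 and WT 2 were 0.12 and 0.09. Dlst, of the 2-oxoglutarate dehydrogenase, differed by -0.93 ± 0.50, and Acads, a short-chain acyl-CoA dehydrogenase, by -0.89 ± 0.42 (SE; limma adjusted p = 0.647 and 0.607). Genes for the mitochondrial ribosome had a smaller WT 2 excess of 1.05, with 72 of 78 below 0 and a median of -0.24. The import and cristae genes had an excess of 0.90, with 14 of 19 below 0 (median -0.19), and the wider list of assembly factors 1.12, with 30 of 41 below 0 (median -0.29). Of 14 inner membrane carrier and uncoupling genes, 8 were below 0 (median -0.37). Their WT 2 excess ran from -2.62 to 6.49, with a median of 1.92. Limma called 0 genes in each of these lists.

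Of 15 regulators of mitochondrial biogenesis, 10 were below 0 with a median of -0.10, and 0 were called. Ppargc1b, a coactivator of nuclear respiratory genes, read -0.73, 0.53, -0.14 and 0.08 on the KO arrays and 0.80, 2.66, 0.44 and 0.93 on the WT arrays. Its groups overlapped only through KO 2, and the difference was -1.27 ± 0.47 (SE, limma adjusted p = 0.530) and -0.75 without WT 1 and WT 2. Pprc1, a related coactivator, differed by -0.68 ± 0.35 (SE, limma adjusted p = 0.637), with WT 4 the highest array. Cycs, which encodes the cytochrome c that carries electrons between complexes III and IV, read 3.45 on WT 2 and between -1.29 and 0.78 elsewhere, with a difference of -1.14 ± 0.84 (SE, limma adjusted p = 0.722). Cyc1, the haem subunit of complex III, differed by -0.92 ± 0.72 (SE, limma adjusted p = 0.734). Cox17, a copper chaperone for complex IV, read -0.60, -0.05, -0.28 and -0.59 against 0.85, 2.23, -0.17 and 1.04, so that WT 3 alone overlapped KO, with a difference of -1.37 ± 0.43 (SE, limma adjusted p = 0.455). Of the glycolysis genes, 15 of 18 were below 0 (median -0.70, and -0.27 without WT 1 and WT 2), and Hk2, a hexokinase, read 2.47 on WT 2 and from -2.02 to 0.22 elsewhere.

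Skeletal muscle and fat markers were high together with the members on WT 2. The fat markers were also high on WT 1, where the member median was 0.44, beside 0.53 on KO 2. The 21 tested skeletal muscle markers had a median of 7.78 on WT 2 and 1.03 on WT 1, whereas KO arrays ran from -0.15 to 0.40 and WT 3 and WT 4 read -0.06 and -0.10, and all 23 listed markers were well above background on WT 2. The general adipocyte markers had medians of 3.87 on WT 2 and 3.01 on WT 1, and of 0.15 to 0.42 elsewhere. Ucp1, the uncoupling protein of brown fat, read 8.83 on WT 2 and 6.63 on WT 1 and from -0.24 to 0.34 elsewhere. The 10 tested brown adipocyte markers had medians of 3.18 on WT 2 and 1.34 on WT 1, against 0.01 to 0.28. Not all of them followed Ucp1: WT 2 was the highest array for 7, with an excess from -1.02 to 6.49. WT 1 exceeded the mean of WT 3 and WT 4 for 8 of the 10. Prdm16, a brown adipocyte marker too dim to test, read -0.14 on WT 1, 0.35 on WT 2 and 0.90 on WT 3. On WT 1 the fat marker medians, Cox8b and Cox7a1 were high, while the muscle markers were far below those of WT 2 and Cox6a2 read -0.39. Cox8b was also above every KO array on WT 4 (1.66), where the general adipocyte median was 0.42. Whether the isoforms followed the fat markers was not tested. The 4 tested cardiac markers had a median of 0.71 on WT 2. Of the 3 cardiac markers too dim to test, Actc1, cardiac actin, read 5.30 on WT 2 and was well above background on 1 WT array and no KO array, while Tnnt2 read -0.998 and Ryr2 0.11 on WT 2.

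**Figure D5:**
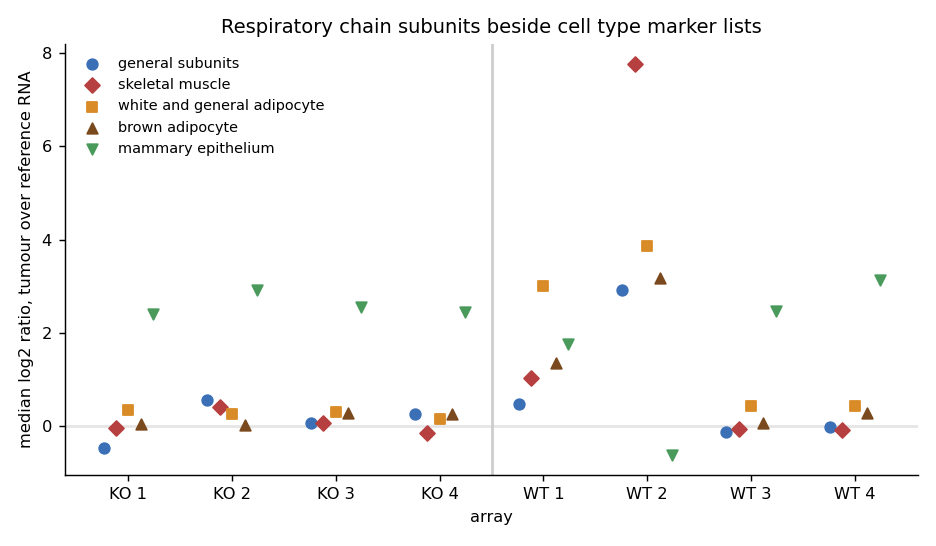
Median log2 ratio of tumour to reference RNA of the general respiratory chain subunits (77 genes) and of 4 lists of cell type markers on each of the 8 arrays. Muscle and fat markers and the subunits are high on WT 2, where the epithelial median is -0.63, and the fat markers are also high on WT 1.

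Without WT 1 and WT 2 the median difference was 0.27 for skeletal muscle, with 15 of 21 genes above 0, beside 0.13 for the members. It was -0.06 for general adipocytes and -0.08 for brown adipocytes, whose genes ran from -2.87 to 1.97. All 8 fibroblast genes were below 0 over 8 arrays, with a median of -1.80 that was -1.33 over 6, with 0 called and 8 at an unadjusted p under 0.05 over 8 arrays, which 7.88% of all genes reached. Endothelial and macrophage medians were -0.12 and -0.82 over 8 arrays. The median WT 2 excess was 0.09 for fibroblast, 0.17 for endothelial and -0.63 for macrophage markers. The part that these cell types had in the levels of the respiratory chain genes was not tested, and in such tissue RNA fewer cells of a type and less RNA per cell cannot be told apart.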

How the data were processed

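Values were computed for 8 arrays, 4 per group. Per the file headers, spot intensities on a linear scale came from Agilent Feature Extraction 11.0.1.1 on probes designed against mm9, and the scanner's ratio column is a log10 ratio of red over green. The series matrix the authors deposited holds log2 ratios, for which the sources used here give no normalization. The label field names only cy3, whereas the labels' protocol gives the tumour RNA the red dye. Green varied less within groups (median SD 0.162 and 0.177, against 0.281 and 0.348 in red), so green was taken as the reference.

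In R 4.3.3 with limma 3.58.1, median intensities were corrected by normexp (offset 50) and loess within arrays, control and outlier spots were left out, and spots of a probe were averaged. A probe was tested if 4 or more arrays had red signal well above background and each group had 3 or more values (39853 probes), which it can pass through KO alone. Genes were named by RefSeq accession (GRCm38.p6, names only), each represented by its brightest probe. limma compared KO with WT (adjusted p under 0.05). Tested on simulated arrays, the 8-array fit over 39853 probes recovered 38% of changes of 1 (log2) and 82% of changes of 2, and the fit without WT 1 and WT 2 1% and 55%. The 200 changed probes were drawn at random, with independent noise of equal spread in both groups. The shares therefore do not describe the members, which varied together and whose median had an SD of 1.40 over the WT arrays.

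Members and lists were chosen with earlier results of these data known. Full values are given for the isoform pairs, complex II and, in the other complexes, the smallest p-values and the difference nearest 0. In other lists genes with the smallest p-values were named. Other genes were chosen after their values were seen.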

Additional observations from a re-analysis of the deposited data

Results flagged for a closer look

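Within a group of 4 arrays, the highest or lowest value stood apart from the other 3 by more than Dixon's 95% critical value allows in 8 of 65 groups of values tested. Chance gives about 5% of groups of independent values. The 65 groups share the same 8 arrays, some medians contain genes also tested singly, and some genes were named by their p-values. The count therefore cannot be set against that share. WT 2 was the separate array in 6 of the 8. These were the complex V median (2.84), Cox6a2 (7.17), Cox7a2 (2.25), Ndufb7 (3.35), Ndufc2 (2.06) and Atp5g2 (0.78), all on the log2 ratio scale and all the highest WT value. The other 2 were both on KO 3, the highest KO array for Cox8b (0.96) and for the median of the 3 muscle isoforms (0.40). On KO 3 that median was the value of Cox7a1.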

How the results depend on the processing

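Over 22 alternatives, all chosen with earlier results known, limma called 0 of the members. The count over all probes, 4 over 8 arrays, was 0 with Agilent's own log ratio, with scaling between arrays, with the red channel alone, with probes above background on all 8 arrays, with the bright area left out, with trend and robust eBayes and with WT 1 and WT 2 left out. It was 139 without the filter on dim probes, 11 with array weights and 0 to 1 leaving out 1 array. The member median was -0.24 with array weights, -1.03 to -0.05 leaving out 1 array and 0.13 without WT 1 and WT 2, and the spread between WT arrays is too large for these to show stability. Agilent's ratio and the red channel moved the median of all genes to 0.09 and 0.07. The replicate block gave 0 probes called and a member median of -0.73. Its numbers do not pair the samples: same-numbered arrays correlated at -0.04, 0.01, 0.11 and -0.11 in their deviations from the group means.

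If green were the tumour channel, the medians would be 0.73 over all members, 0.78, 0.73, 0.80, 0.73 and 0.74 for complexes I to V and 2.16 for the muscle isoforms, and this was not run gene by gene, since it only turns signs.

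Among the named genes, Cox4i2 was 0.034 with Agilent's ratio, 0.015 with red alone and -0.10 to 0.019 leaving out 1 array. With array weights Ndufa1 was 0.034, Ndufc2 0.13 and Atp5g2 0.014. Leaving out 1 array gave -0.72 to 0.074 for Cox7a2, -0.96 to 0.095 for Sdhc, -0.82 to 0.24 for Ndufa1, -0.86 to 0.17 for Ndufa8, -0.54 to 0.25 for Ndufc2, -0.92 to 0.0061 for Uqcrb and -0.31 to 0.13 for Atp5g2. The values above 0 came without WT 2, and for Ndufc2 also without KO 1 (0.16). For Cox4i2 they came without KO 4 or WT 3. Without WT 1 and WT 2, 17 named genes changed sign to above 0: Cox6a2 0.26, Cox7a1 0.19, Cox6a1 0.075, Cox7a2 0.14, Cox8a 0.085, Sdha 0.29, Sdhb 0.0089, Sdhc 0.33, Sdhd 0.27, Ndufa1 0.49, Ndufa8 0.36, Ndufc2 0.34, Uqcrc1 0.015, Uqcrq 0.057, Uqcrb 0.19, Uqcrc2 0.24 and Atp5g2 0.13. Cox6b2, above 0 over 8 arrays, was 0.45. The cause of these changes was not tested. Signal over background limits Cox7b2, Cox8c and Ndufaf8, which were not tested.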
